A study of Mus musculus with 7 samples.

Results

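The genes described here are 10 parts of the cytosolic alarm system of macrophages: the NOD-type sensors Nod1 and Nod2, the inflammasome sensors Nlrp3, Nlrc4 and Aim2, the adaptor Pycard (ASC), the inflammatory caspases Casp1, Casp4 and Casp12, and the pore-forming protein Gsdmd. They form a list chosen by name with earlier results of these data known, so their counts beside all genes describe the list and test nothing. Each was taken from the deposited value table as the brightest probe set whose only gene symbol is that name. All 10 of 10 were measured, each by exactly 1 probe set, among 19938 genes on the array. The series holds 7 Affymetrix arrays. Each measured RNA of macrophages that a cell sorter had collected from the lamina propria of the colon, in C57BL/6 mice 6 weeks old. Controls carried Cx3cr1gfp/+ (GFP in place of one Cx3cr1 allele) and were profiled on 1 array of cells labelled CX3CR1hi and on 3 arrays of cells labelled resident. The Il10-deficient group was 1 array of CX3CR1hi cells from IL10-/- CX3CR1gfp/+ mice, and the Il10ra-deficient group was 2 arrays of resident cells from CX3CR1cre:IL10Raflox/flox mice, in which Cre made from the Cx3cr1 locus deletes the ligand-binding chain of the IL-10 receptor in the cells that express it. GFP and Cre sit at the same locus and no array carries Cre alone, so the allele and the deletion cannot be told apart. Whether the arrays of a group stand for separate mice or for pools is not stated in the labels. The p-values therefore measure only how far these samples spread, and that spread may be technical.

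NOD1 and NOD2 bind fragments of bacterial cell wall in the cytosol and signal through the kinase RIPK2 to NF-kB. NLRP3, NLRC4 and AIM2 answer to membrane damage, to flagellin and secretion-system proteins, and to cytosolic DNA, and through ASC they assemble inflammasomes that activate caspase-1. Caspase-1 matures IL-1 beta and IL-18, caspase-4 (mouse caspase-11) is activated by intracellular lipopolysaccharide, and both cut gasdermin D, which then opens pores in the plasma membrane. Colonic macrophages live beside the gut bacteria and normally respond little to them, and IL-10 is a main signal that keeps them so.

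The 10 genes did not move as a block. Nod1, Nod2, Casp12 and Gsdmd stood higher on both Il10ra-deficient arrays than on any of the 3 resident control arrays, with group means 1.75-fold to 2.63-fold apart, and the same 4 genes were the furthest above control on the array labelled Il10-deficient. Nlrp3, Nlrc4, Aim2, Casp1, Casp4 and Pycard overlapped their resident controls. By limma over all genes tested, 0 of the 10 genes passed an adjusted p of 0.05 for Il10ra deficiency, where 0.00% of all genes passed as higher and 0.00502% as lower. Only Nod1 was higher by at least 1 log2 unit and 0 of the 10 lower by as much, against 0.953% and 1.43% of all genes. At an unadjusted p under 0.05, 4 of the 10 were higher and 0 lower, against 4.06% and 3.86% of all genes. Both mutant arrays lay above all controls for 4 of the 10 and below all controls for 0, against 8.92% and 8.50% of all genes. With 2 against 3 arrays an exact permutation test of a single gene cannot give a p below 0.1. In RNA from a sorted population, a change in the share of cells of a kind and a change of RNA per cell cannot be told apart.

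**Figure D1:**
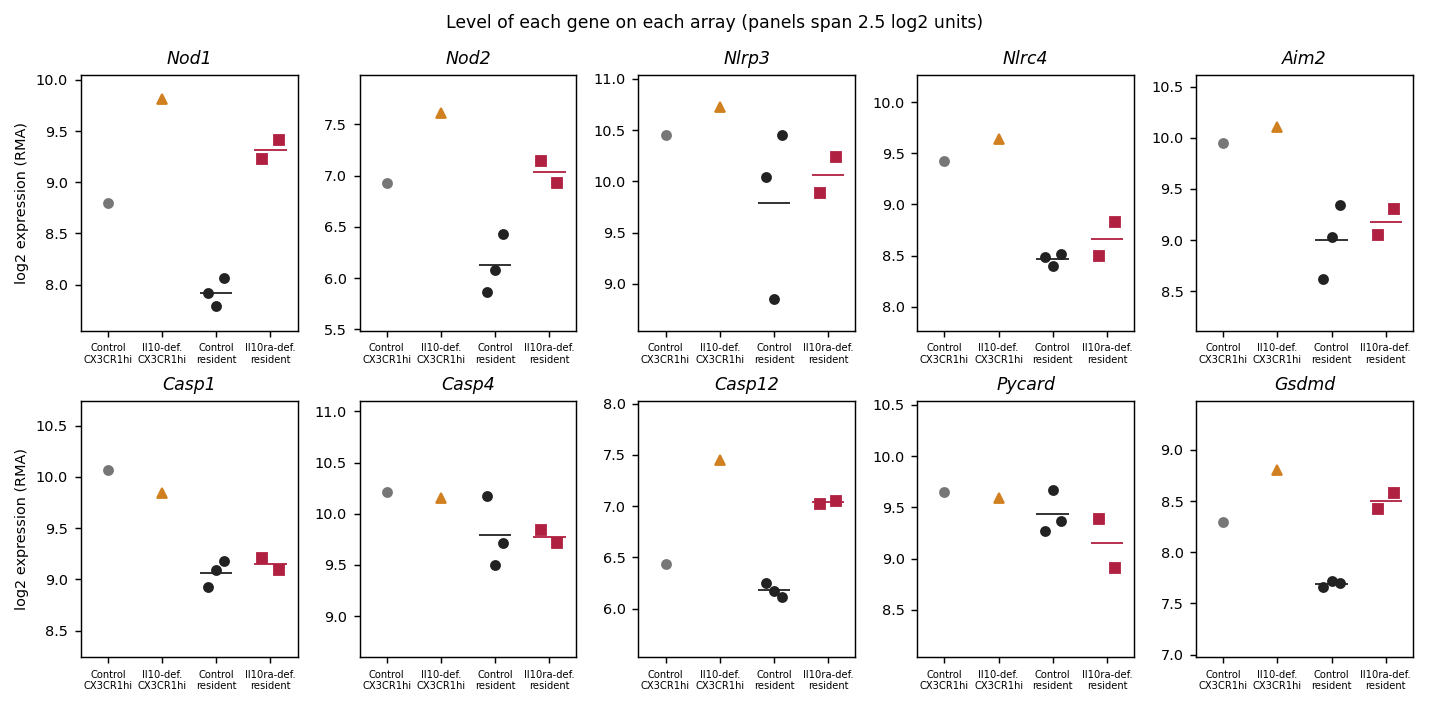
Log2 expression (RMA, vertical axis) of each of the 10 genes on each of the 7 arrays, by group; every point is an array and horizontal bars mark means of groups with more than 1 array. In the Nod1, Nod2, Casp12 and Gsdmd panels both Il10ra-deficient squares lie above all 3 resident control circles, and in the other panels they overlap them.

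Some facts of the whole series bear on these values. Il10ra stood at 10.56, 10.76 and 11.12 on the resident control arrays and at 8.05 and 7.04 on the Il10ra-deficient ones, whereas Il10 stood at 11.04 in the CX3CR1hi control and at 10.75 on the array labelled Il10-deficient, where the sources used here do not say how its probes lie relative to the deletion. Arrays of the same sort label correlated at r of 0.976 to 0.991 and arrays of different labels at 0.917 to 0.934. The macrophage genes Csf1r (12.18 to 12.48) and Cx3cr1 (10.11 to 11.45) were abundant on all 7 arrays, but so were the epithelial genes Epcam (9.15 to 11.65) and Cdh1 (8.93 to 11.19). In the 5 resident arrays 60.4% of genes held exactly equal deposited values on 2 or more arrays and 36.7% on 3 or more, while 0 genes were equal on both CX3CR1hi arrays. Equal values lay within the control or within the mutant group for 45.8% of genes, where they make the spread smaller, and the fit takes its spread for the CX3CR1hi pair from these groups. Of the 10 genes 0 had equal values within a group, and Casp1 and Casp4 had a mutant array equal to a control array.

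Nod1, the sensor of a peptidoglycan fragment typical of Gram-negative bacteria, had the largest difference of the 10. Its level was 7.92, 7.79 and 8.07 on the resident control arrays and 9.23 and 9.41 on the Il10ra-deficient arrays. The lowest mutant value exceeded the highest control by 1.16 log2 units, more than the 0.14 SD of the controls (n = 3). The difference was 1.40 ± 0.11 on the log2 scale (SE, 2 against 3 arrays), a 2.63-fold increase, with a 95% interval of 1.07 to 1.72 and adjusted p = 0.186 by limma. In the CX3CR1hi cells Nod1 was at 8.79 in the control and 9.82 on the array labelled Il10-deficient, the highest of all 7 arrays. That difference was 1.02 ± 0.18 (1 against 1 array, SE from the other arrays, adjusted p = 0.0595).

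Nod2 senses muramyl dipeptide, a fragment shared by most bacteria, and is a known susceptibility gene of Crohn's disease. It was at 5.86, 6.08 and 6.43 on the resident control arrays and at 7.15 and 6.93 on the Il10ra-deficient arrays. The groups did not overlap, with a gap of 0.50 log2 units, although the controls spread more than for Nod1 (SD 0.29, n = 3). The difference was 0.91 ± 0.20 (SE, 1.88-fold, 95% interval 0.34 to 1.49, adjusted p = 0.427 by limma). In CX3CR1hi cells Nod2 was at 6.92 in the control and at 7.61 on the array labelled Il10-deficient, higher by 0.69 with an interval of -0.21 to 1.59.

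The 250 bases before the starts of both NOD genes are given here, and their part in the levels was not tested. They are RefSeq sequences of build GRCm38.p6, chr6:54972613-54972862 on the minus strand and chr8:88647097-88647346 on the plus strand, each read 5′ to 3′ towards the gene.
Nod1: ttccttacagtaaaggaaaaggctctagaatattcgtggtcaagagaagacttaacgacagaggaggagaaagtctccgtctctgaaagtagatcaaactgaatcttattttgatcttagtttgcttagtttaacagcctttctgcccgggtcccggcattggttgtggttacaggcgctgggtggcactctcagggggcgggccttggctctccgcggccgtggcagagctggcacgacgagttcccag
Nod2: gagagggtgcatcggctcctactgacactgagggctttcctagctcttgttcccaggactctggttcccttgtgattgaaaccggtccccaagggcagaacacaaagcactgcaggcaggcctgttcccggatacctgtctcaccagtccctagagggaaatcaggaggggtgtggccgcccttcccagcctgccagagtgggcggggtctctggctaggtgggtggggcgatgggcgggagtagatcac
Capitals would mark matches on either strand to a GAS element (TTCNNNGAA, bound by STAT factors), an interferon element (a pair of GAAA half-sites spaced by 2 bases), the NF-kB consensus or an AP-1 element (TGANTCA), and neither window held one. Among all 32851 windows of that length in the table, 7.02%, 2.98%, 3.90% and 6.75% held these motifs. For Nod1 the table gives 2 starts and the more upstream was used.

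The inflammasome sensors did not separate by genotype. Nlrp3, whose own transcription is induced by NF-kB as the priming step of its inflammasome, was at 10.04, 8.86 and 10.46 on the resident control arrays and at 9.89 and 10.24 on the Il10ra-deficient arrays. Both mutant values lay inside the control range, which resident control array 2 alone stretched downwards. The difference was 0.28 ± 0.56 (SE, 95% interval -1.31 to 1.87, adjusted p = 0.873 by limma), and -0.18 without resident control array 2. These arrays therefore leave room for a 2-fold change of Nlrp3 in either direction.

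Nlrc4, which with NAIP proteins detects flagellin, was measured far more tightly. It was at 8.48, 8.40 and 8.51 in resident controls and at 8.49 and 8.83 in the Il10ra-deficient arrays. Array 1 of the mutant lay among the controls and array 2 above them. The difference was 0.20 ± 0.12 (SE), and its 95% interval, -0.15 to 0.55, does not reach 1 log2 unit. Aim2, the DNA sensor, was at 8.62, 9.03 and 9.34 in resident controls and at 9.05 and 9.30 in the mutant arrays, all inside the control range, with an interval for the difference of -0.54 to 0.90. In the CX3CR1hi pair (control, then the array labelled Il10-deficient) Nlrp3 stood at 10.46 and 10.73, Nlrc4 at 9.42 and 9.64, and Aim2 at 9.94 and 10.11.

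The 3 caspase genes lie next to each other on chromosome 9 in the RefSeq gene table, yet their values went apart. Casp12, a caspase-1 relative that has been described as a modulator of inflammatory caspases and of NOD signalling, was at 6.25, 6.17 and 6.11 on the resident control arrays and at 7.02 and 7.05 on the Il10ra-deficient arrays. The gap between the groups was 0.77 log2 units and the control SD was 0.070 (n = 3). The difference was 0.86 ± 0.054 (SE, 1.81-fold, 95% interval 0.71 to 1.01, adjusted p = 0.134 by limma). In CX3CR1hi cells Casp12 was at 6.43 in the control and at 7.45 on the array labelled Il10-deficient, which was 1.01 ± 0.083 higher (2.02-fold). This was the only one of the 10 to pass in that comparison (adjusted p = 0.0119 by limma), where 3.20% of all genes passed as higher and 4.70% as lower. The call was lost when dim genes were left out (adjusted p = 0.175) or when arrays were quantile normalized (adjusted p = 0.149) or centred (adjusted p = 0.0812). It was also lost with runs of neighbouring sample codes as a block (adjusted p = 0.054), without resident control array 2 (adjusted p = 0.0623) and with the 4 control arrays as 1 group (adjusted p = 0.344). Casp12 is dim here, not far above 5.86, the median of all values, and RMA compresses changes of dim genes. The same limit holds for Nod2, whose resident control mean was 6.12, against 6.18 for Casp12.

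Casp1, the caspase of the canonical inflammasome, was at 8.92, 9.09 and 9.18 in resident controls and at 9.21 and 9.09 in the Il10ra-deficient arrays. Mutant array 2 coincided with a control. The difference was 0.088 ± 0.10 (SE) with a 95% interval of -0.20 to 0.38, so an increase of the size seen for Casp12 lies outside it. In the CX3CR1hi pair Casp1 was at 10.07 in the control and 9.84 on the array labelled Il10-deficient. Casp4, the lipopolysaccharide-responsive caspase, was at 10.17, 9.50 and 9.72 in resident controls and at 9.84 and 9.72 in the mutant arrays. The difference was -0.016 ± 0.23 (SE, interval -0.68 to 0.65), with 10.21 and 10.15 in the CX3CR1hi pair.

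The upstream windows of the 3 neighbours are shown next, and whether they bear on the unequal differences from control was not tested. All are RefSeq sequences of build GRCm38.p6 on the plus strand, at chr9:5298267-5298516, chr9:5308599-5308848 and chr9:5345226-5345475.
Casp1: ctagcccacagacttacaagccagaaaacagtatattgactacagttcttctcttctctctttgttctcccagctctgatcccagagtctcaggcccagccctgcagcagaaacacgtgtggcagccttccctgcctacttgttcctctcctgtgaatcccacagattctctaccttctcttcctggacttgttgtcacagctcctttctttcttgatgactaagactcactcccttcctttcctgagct
Casp4: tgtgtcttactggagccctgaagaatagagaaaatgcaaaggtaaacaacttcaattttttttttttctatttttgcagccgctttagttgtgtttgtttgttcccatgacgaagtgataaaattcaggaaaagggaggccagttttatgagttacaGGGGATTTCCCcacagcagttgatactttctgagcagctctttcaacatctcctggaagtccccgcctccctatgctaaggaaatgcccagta
Casp12: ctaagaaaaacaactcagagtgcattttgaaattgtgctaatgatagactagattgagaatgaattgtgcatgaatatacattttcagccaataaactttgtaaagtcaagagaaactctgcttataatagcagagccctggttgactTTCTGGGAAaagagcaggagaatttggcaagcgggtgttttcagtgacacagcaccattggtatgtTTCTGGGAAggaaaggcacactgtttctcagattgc
Capitals in Casp12 mark 2 copies of a GAS match, both TTCTGGGAA, at -102 to -94 and at -36 to -28 from the start. Capitals in Casp4 mark 2 overlapping matches to the NF-kB consensus, at -93 to -84 and -92 to -83. Casp1 held none of the 4 motifs. Among the other genes Nlrp3 held an NF-kB match, GGGAACCCCC, at -186 to -177, and Nlrc4, Aim2 and Pycard held none. Gsdmd had no upstream window and was not searched. For Nlrp3 and Casp4, as for Nod1, 2 starts are given and only the window of the more upstream one was searched. A match is a run of letters and does not show that a factor binds there. The shares of 7.02% for GAS and 3.90% for NF-kB are of windows with any match, and windows with 2 copies were not counted. Nod1 and Nod2, which also stood higher, held no match. Casp4 and Nlrp3, which held NF-kB matches, overlapped their controls.

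The adaptor overlapped its controls and the pore former did not. Pycard, which links sensors to caspase-1, was at 9.27, 9.67 and 9.37 in resident controls and at 9.39 and 8.91 in the Il10ra-deficient arrays. Mutant array 1 lay within the control range and array 2 below it. The difference was -0.29 ± 0.21 (SE, interval -0.88 to 0.31, adjusted p = 0.681 by limma), and -0.05 without mutant array 2. Gsdmd, the pore-forming substrate of both caspase-1 and caspase-4, was at 7.66, 7.72 and 7.70 in resident controls and at 8.42 and 8.58 in the mutant arrays. The gap was 0.70 log2 units against a control SD of 0.033 (n = 3). The difference was 0.81 ± 0.064 (SE, 1.75-fold, interval 0.63 to 0.99, adjusted p = 0.172 by limma). In the CX3CR1hi pair Pycard was at 9.65 in the control and 9.59 on the array labelled Il10-deficient, and Gsdmd at 8.30 and 8.80.

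The adjusted p-values of these 4 genes depended on how the arrays were scaled, while their separation did not. The genes Nod1, Nod2, Casp12 and Gsdmd were above all resident controls on the values as deposited, after quantile normalization and after centring each array on its median. Adjusted p after quantile normalization was 0.0224 for Nod1, 0.0364 for Casp12 and 0.0451 for Gsdmd. After centring it was 0.0223, 0.0208 and 0.0585, and Nod2 was at 0.161 and 0.114. When either mutant array was left out the difference of Nod1 was 1.30 or 1.49, that of Nod2 1.02 or 0.80, that of Casp12 0.84 or 0.88 and that of Gsdmd 0.73 or 0.88. The sample codes form a run from 54 to 56 and a run from 67 to 68, each with a mutant and at least 1 control. Within these runs the mutant exceeded its control by 1.38 and 1.34 for Nod1, by 1.18 and 0.50 for Nod2, by 0.81 and 0.94 for Casp12 and by 0.73 and 0.88 for Gsdmd. These 4 genes were singled out because both mutant arrays lay above all resident controls. The direction of their differences within runs, or with a mutant array left out, was fixed by that, and only the sizes could vary.

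**Figure D2:**
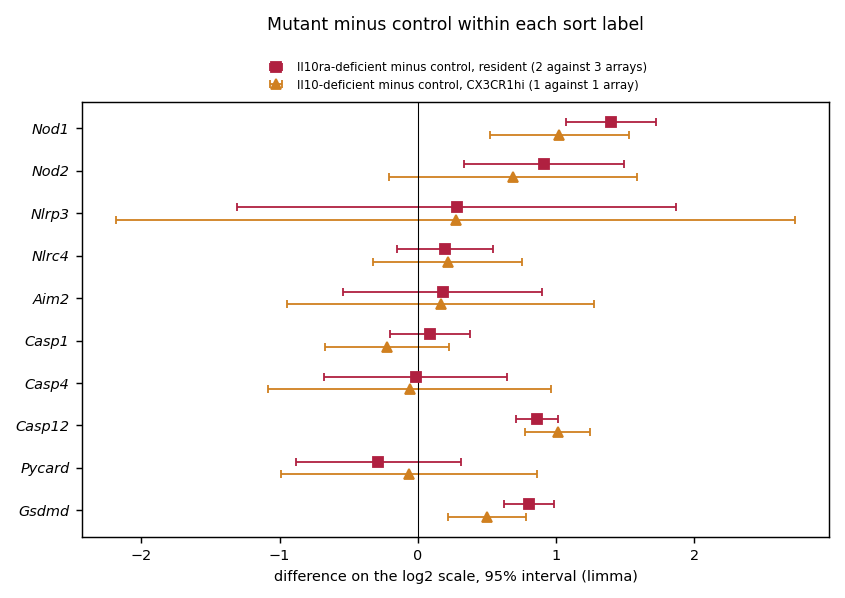
Difference of each gene on the log2 scale (horizontal axis) between mutant and control of the same sort label, with 95% intervals from limma; squares are 2 Il10ra-deficient against 3 control arrays, triangles the single array labelled Il10-deficient against a single control. Intervals of Nod1, Casp12 and Gsdmd lie above 0 for both mutants, and those of Nlrp3 are the widest.

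Both mutant effects were then compared with each other. The array labelled Il10-deficient was higher than its control by at least 1 log2 unit for Nod1 (1.02) and Casp12 (1.01), 2 of 10 genes against 0.692% of all genes, and 0 were lower by as much against 1.22%. At an unadjusted p under 0.05, 3 of the 10 were higher and 0 lower, against 10.4% and 11.6%. Gsdmd was 0.50 ± 0.099 higher (adjusted p = 0.0785 by limma). The Il10ra effect minus the Il10 effect was 0.37 for Nod1 (95% interval -0.22 to 0.97), 0.22 for Nod2 (-0.84 to 1.29), -0.15 for Casp12 (-0.43 to 0.13) and 0.31 for Gsdmd (-0.03 to 0.64). By limma 0 of the 10 differences passed (the smallest adjusted p was 0.359, for Gsdmd), where 2.89% of all genes passed as higher and 1.81% as lower, and 0 of the 10 had an unadjusted p under 0.05, against 8.49% and 7.36%. These intervals are too wide to call the effects equal. Both comparisons rest on different controls and share only the estimate of the spread.

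The median difference of the 10 genes was 0.24 for Il10ra deficiency and 0.24 for the array labelled Il10-deficient, beside 0 and 0.03 over all genes tested. Differences were above 0 for 8 and 7 of the 10, against 48.8% and 56.3% of all genes. Without mutant array 1 the median was 0.41, without mutant array 2 it was 0.13 and without resident control array 3 it was 0.48, so its size rests on few arrays. With the 4 controls as 1 group it was 0.035, and the median for the array labelled Il10-deficient was 0.90.

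Levels also differed between the control arrays of both sort labels. All 10 genes were higher in the CX3CR1hi control than in the mean of the 3 resident controls, by 0.22 for Pycard to 1.00 for Casp1 on the log2 scale. Nod1 (0.87), Nlrc4 (0.96), Casp1 (1.00), Casp12 (0.26) and Gsdmd (0.61) passed (adjusted p = 0.00601 to 0.0398 by limma), 5 of 10 against 19.5% of all genes called higher and 36.1% called lower. Over all genes 48.4% were higher in the CX3CR1hi control. Among the 10558 genes above the overall median in at least 2 arrays, a set that holds all 10, 81.4% were higher in the CX3CR1hi control, with a median of 0.38. After quantile normalization 8 of the 10 were higher and only Casp1 passed (0.62, adjusted p = 0.0277), and Casp12 (-0.05) and Pycard (-0.18) turned lower. The labels name different RNA extraction kits for samples 1 to 2 and 3 to 7; if that numbering follows the order of the series, kit and sort label cannot be told apart.

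The partners of these genes were then read from 4 lists, beside 48.8% of all genes higher, 8.92% above all controls and 8.50% below all controls. These lists too were chosen with earlier results of the data known, so counts beyond those shares are no independent evidence. Of the 22 measured genes of NOD signalling and peptide transport, 18 were higher and 4 lower in the Il10ra-deficient arrays, with a median of 0.19, and 6 lay above and 0 below all controls. The median was 0.051 without mutant array 2 and 0.32 without mutant array 1. Irgm1, an immunity-related GTPase tied to autophagy, was 1.72 ± 0.18 higher (3.29-fold), Ikbkb, the NF-kB activating kinase, 0.41 ± 0.10 and Atg16l1, an autophagy protein that NOD proteins recruit, 0.24 ± 0.048. Their adjusted p was 0.219, 0.482 and 0.406 by limma. Ripk2, the kinase directly downstream of both NOD proteins, was not analysed here.

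Of the 14 other NLR, NAIP and pyrin-family sensors, 10 were higher, with a median of 0.33, and 7 lay above and 1, Naip6, below all controls. The median was 0.16 without mutant array 2 and 0.54 without mutant array 1. Naip6 was barely below, at 10.1865 on its higher mutant array and 10.1881 on its lowest resident control. The DNA-binding PYHIN gene Ifi205 was 2.34 ± 0.45 higher (5.05-fold), Nlrc5, which switches on MHC class I genes, 2.09 ± 0.26 (4.26-fold) and Nlrp1b, the sensor of anthrax lethal factor, 1.04 ± 0.22 (2.05-fold). None of these passed (adjusted p = 0.257 to 0.416 by limma). The NAIP genes hand flagellin and secretion-system proteins to Nlrc4. Their differences did not pass: Naip2 was at 0.33 ± 0.21, Naip5 at 0.17 ± 0.083 and Naip6 at -0.16 ± 0.082. They were chosen after their values were seen, as partners of Nlrc4.

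Of the 18 genes of inflammasome licensing and ligand access, 15 were higher, with a median of 0.40, and 9 lay above and 1, Txnip, below all controls. Gbp5, a GTPase reported to promote NLRP3 assembly, was 2.29 ± 0.26 higher (4.90-fold), and Gm12250, which encodes IRGB10, a GTPase that exposes bacterial lipopolysaccharide and DNA, 1.71 ± 0.24 (3.28-fold). Sting1, the adaptor of cytosolic DNA signalling, was 0.68 ± 0.084 higher. Adjusted p for these was 0.243, 0.270 and 0.257 by limma.

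Of the 15 effectors and substrates, 11 were higher, with a median of 0.52, and 8 lay above and 2, Gsdme and Gsdmc, below all controls. Gsdmc was barely below, at 5.5942 on its higher mutant array and 5.5969 on its lowest resident controls. It was dim, below the median of all values on every array. Il18bp, which neutralises IL-18, was 2.01 ± 0.078 higher (4.02-fold, adjusted p = 0.0794 by limma), the transglutaminase gene Tgm2 2.01 ± 0.37 and Mlkl, the pore former of necroptosis, 1.28 ± 0.28. The caspase-1 substrates themselves, chosen after their values were seen, stood at 0.60 ± 0.31 for Il1b and -0.23 ± 0.15 for Il18. In the array labelled Il10-deficient Il18bp was also higher (1.48, adjusted p = 0.0119 by limma). That call was lost without dim genes (adjusted p = 0.175), after quantile normalization (0.0948) or centring (0.0879), with the block of sample runs (0.0528), without resident control array 2 (0.054) and with pooled controls (0.293). The genes with the largest difference in the other lists were Gbp5 (1.48), Ifi205 (1.45) and Irgm1 (0.82), which did not pass. In the sensor list Nlrp10 (-0.21, adjusted p = 0.00706) and Nlrc3 (-0.27, 0.0116) passed as lower by limma on that array. Both also passed for the difference of effects (0.0139 and 0.025 by limma). Both were dim, below the median of all values on every array, and their resident control arrays held equal values. Over the 4 lists 0 genes passed for Il10ra deficiency by limma, and at an unadjusted p under 0.05 the counts were 3 of 22, 6 of 14, 7 of 18 and 7 of 15 higher, with 1 gene lower, Txnip, in the licensing list, against 4.06% and 3.86% of all genes. After quantile normalization or centring Irgm1, Gbp5, Gm12250 and Il18bp passed for Il10ra deficiency (adjusted p = 0.00679 to 0.0433 by limma), and after centring Nlrc5 did too (0.0223). Il18bp also passed without dim genes (0.0387) and without mutant array 1 (0.0421) or 2 (0.0444), and with pooled controls Gbp5, Gm12250 and Il18bp passed (0.0178 to 0.0484).

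**Figure D3:**
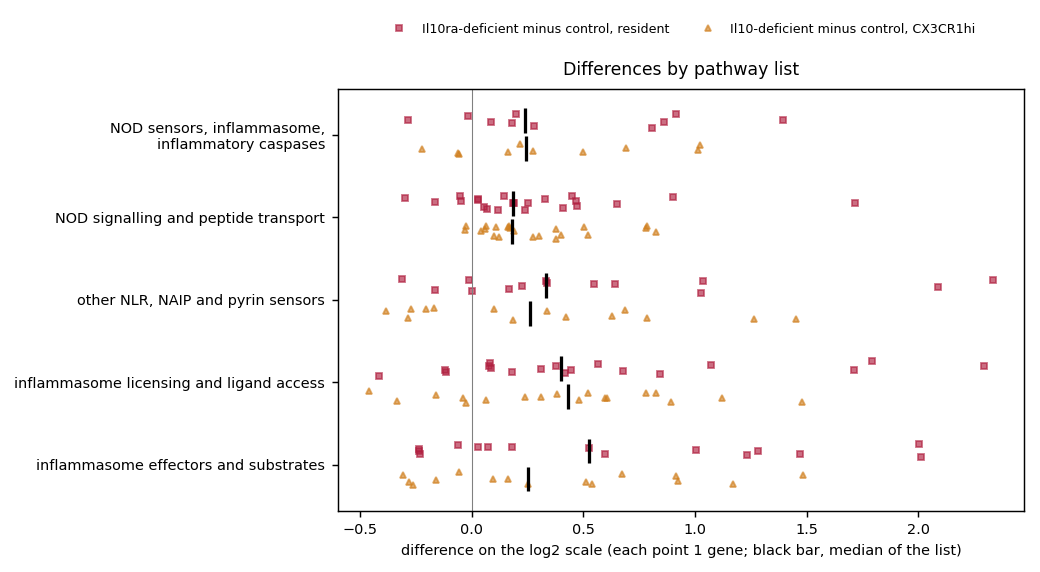
Difference on the log2 scale (horizontal axis) of every measured gene in 5 lists, squares for Il10ra deficiency and triangles for the array labelled Il10-deficient; black bars mark list medians. Medians for Il10ra deficiency run from 0.19 in NOD signalling to 0.52 in effectors and substrates.

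Markers of other cell types were read on the same arrays, and their part in the results was not tested. Epithelial markers (14 of 14 measured) averaged 10.19 to 10.57 on the resident control arrays, 10.30 on Il10ra-deficient array 1 and 8.68 on array 2. On array 1 the epithelial mean lay inside the control range. The monocyte (8.23) and neutrophil (6.31) means there were the highest of all 7 arrays, although most neutrophil markers were dim. Nod1, Nod2, Casp12 and Gsdmd were 1.30, 1.02, 0.84 and 0.73 above the control mean on that array. On array 2 these were 1.49, 0.80, 0.88 and 0.88, and Pycard was 0.52 below it. Monocyte markers (12 of 15 measured) averaged 7.52 to 7.78 in resident controls and 8.23 and 7.83 in the mutant arrays. Their defining gene Ccr2 lay within the control range (10.65 and 10.64 against 9.75 to 11.33) and F10 above it (9.18 and 8.84 against 5.65 to 6.17). Of the 12, 5 lay above and 3 below all controls, among the latter F13a1 (7.57 and 7.40 against 9.89 to 10.99) and Fn1 (8.75 and 8.26 against 9.72 to 10.22).

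Neutrophil markers (14 of 14 measured) averaged 5.78 to 5.81 in resident controls and 6.31 and 5.89 in the mutant arrays, with Ly6g at 9.70 and 8.10 against 6.95 to 8.17 and S100a8 at 5.92 and 5.28 against 4.96 to 5.11. Fibroblast and muscle markers (12 of 12) averaged 7.11 to 7.58 in resident controls and 6.57 and 6.55 in the mutant arrays. B and plasma cell markers (8 of 10) averaged 7.27 to 7.47 and 7.68 and 8.06, and dendritic cell markers (12 of 12) 6.81 to 7.09 and 7.09 and 7.37. The dendritic mean hides opposite shifts, with 5 markers above and 3 below all resident controls. Chosen after their values were seen, Clec9a differed by 2.91, Ccr7 by 2.31, Cd209a by -2.22 and Siglech by -1.61 for Il10ra deficiency. On the array labelled Il10-deficient these differences were 2.63, 2.06, -2.43 and -0.74. T cell and ILC markers (9 of 12) averaged 5.86 to 6.07 and 6.04 and 6.15, and endothelial and glial markers (7 of 8) 6.21 to 6.47 and 6.13 and 6.03. Macrophage markers (14 of 15) averaged 11.48 to 11.60 in controls and 11.38 and 11.55 in the mutant arrays. This mean too hides opposite shifts, with 3 markers above and 4 below all resident controls. The largest of these for Il10ra deficiency were 0.95 for Mertk and 0.61 for Fcgr1, and -1.70 for Cd163 and -0.78 for Mrc1. In the CX3CR1hi pair the epithelial mean was 10.99 in the control and 10.55 on the array labelled Il10-deficient, and the monocyte mean was 7.30 and 7.41.

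**Figure D4:**
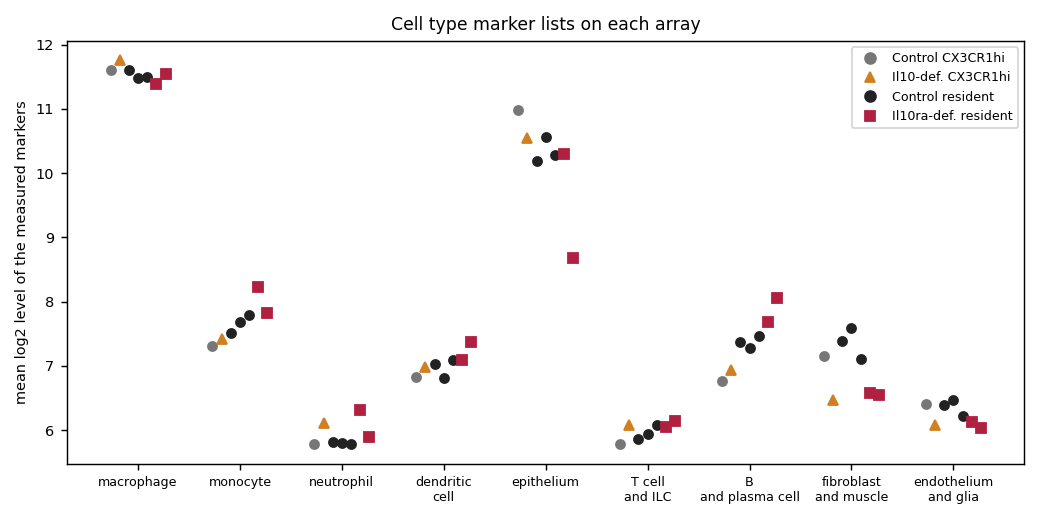
Mean log2 level (vertical axis) of the measured markers of 9 cell types on each of the 7 arrays, 1 point per array and list. The epithelial mean of Il10ra-deficient array 2, at 8.68, lies below that of the other 6 arrays. Macrophage means lie between 11.38 and 11.76 and hide opposite shifts of single markers.

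Genes whose pattern over the 7 arrays was most like 3 of the members were sought by Pearson r among 10025 genes above the overall median in at least 2 arrays, with predicted and clone-named genes left out. These r values describe 7 arrays that share a platform and split into both sort labels, and carry no test. For Nod1 they were Arid5b (0.996), Rnf115 (0.996) and Gdap10 (0.993). For Casp12 they were Uba7 (0.985), Il12b (0.984) and Dapk3 (0.980). For Nlrp3 they were Tnfaip3 (0.991), Nup98 (0.987) and Mafk (0.980). Il12b was 1.93 higher in the Il10ra-deficient arrays and 1.87 higher on the array labelled Il10-deficient, on the log2 scale, whereas the differences of Tnfaip3, a brake on NF-kB, were 0.07 and 0.11.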

How the data were processed

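Per the submitters' processing notes, the authors' deposited log2 values come from RMA (background correction, normalization and probe set summary) and Partek; the notes name no version or build and do not say if the arrays were normalized as 1 set. Array number limits precision. The values run from 3.55 to 14.8. Of 35399 rows, 21789 carry a single symbol, 1621 several and 11989 none, and 21698 matched the RefSeq gene table of GRCm38.p6 by gene ID. For each of 19938 genes the brightest row was kept.

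A model with the 4 groups was fitted to all 7 arrays with limma 3.58.1 in R 4.3.3 (lmFit, eBayes with trend; 3 residual and 0.831 prior degrees of freedom), tested on simulated data beforehand. P-values are two-sided and Benjamini-Hochberg adjusted over all genes, with a threshold of 0.05. Single arrays are assumed to vary as the others do. Replicate numbers follow accession order and only name arrays. No set test was run. The members, pathway and marker lists were chosen with earlier results of these data known. The rule named all 10 members and, in each pathway list, the 3 genes with the smallest p. It also named each list's gene with the largest change in the CX3CR1hi pair. Il10ra and Il10 were named too, as were the 3 genes most like Nod1, Casp12 and Nlrp3. Of the first 2 measured markers of each cell type that it named, only those of the macrophage, epithelial, monocyte and neutrophil lists are given. Other markers in the text fall outside the rule and were chosen after their values were seen. Alternatives were dim-gene filtering, quantile normalization, median centring, averaging rows, no trend, a robust prior, runs of sample codes as a block, resident arrays only, pooled controls and leaving out each resident array.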

Additional observations from a re-analysis of the deposited data

How the results depend on the processing

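The differences of Nod1, Nod2, Casp12 and Gsdmd kept their direction under all alternatives run, with ranges for Il10ra deficiency of 1.18 to 1.49, 0.71 to 1.07, 0.79 to 0.94 and 0.66 to 0.88. With a resident array left out, that direction was fixed by their separation from all controls. Small differences changed sign. Casp4 under Il10ra deficiency was 0.03 after centring and 0.0038 with the block of sample runs, and ran from -0.17 to 0.17 when an array was left out (0.17 without resident control array 1, 0.05 without mutant array 2). Aim2 ran from -0.0080 (without resident control array 1) to 0.35, and Nlrp3 from -0.18 (without resident control array 2) to 0.62. With the 4 controls as 1 group Nlrc4 was -0.042, Aim2 -0.059 and Casp1 -0.16 for Il10ra deficiency, and Casp1 0.53, Casp4 0.25 and Pycard 0.10 for the array labelled Il10-deficient. Gsdmd passed for that array without mutant array 1 or 2 (adjusted p = 0.032 and 0.0318 by limma), and for Il10ra deficiency without mutant array 1 (0.046). Sting1 passed for the array labelled Il10-deficient without resident control array 1 (0.0391). The cause of these changes was not tested.

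Counts of all genes past the limma threshold were 0 higher and 1 lower for Il10ra deficiency, 639 and 937 for the array labelled Il10-deficient, 577 and 360 for the difference of effects, and 3894 and 7203 between control sort labels. Without dim genes they were 5 and 7, then 0 and 2, then 1 and 0, with 446 lower between sort labels. After quantile normalization they were 58 and 56, 4 and 17, 7 and 1, and 2518 and 2246. After centring they were 81 and 65, 10 and 21, 14 and 3, with 2385 higher between sort labels. Without the trend they were 1 and 3, 307 and 451, and 19 and 11. With the robust prior 395 were higher on the array labelled Il10-deficient and 252 and 135 differed between effects. With the block of sample runs 0 were lower for Il10ra deficiency, and the other counts were 169 and 277, and 0 and 0. With pooled controls they were 33 and 37, and 0 and 0. Leaving out an array gave 0 to 194 higher and 0 to 174 lower for Il10ra deficiency, 187 to 1255 and 372 to 1533 for the array labelled Il10-deficient, and 0 to 1284 and 0 to 916 for the difference. Leaving out an array of a mutant pair leaves a lone sample assumed to vary like the others. No paired analysis was possible because the labels give no replicate numbers to pair by, so the only block fitted was that of sample-code runs. Equal values on resident arrays, 81.3% of genes not above the overall median and 41.8% of the others, limit every p.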
